A study of Mus musculus with 12 samples.

Results

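Stat2, Stat3, Stat4, Stat5a and Stat6, which encode signal transducers and activators of transcription (STATs), and Socs1, Socs2, Socs3 and Cish, which encode suppressors of cytokine signalling (SOCS), were described in cultured mouse macrophages. These 9 genes were selected by their symbols from a table of 55335 genes. The cells were bone marrow-derived macrophages (BMDMs), matured from marrow in culture with macrophage colony-stimulating factor, and their RNA was sequenced in 12 libraries. Wild-type cells and cells without Nlrp3 (Nlrp3-/-) were each taken as control and after LPS+ATP, with 3 libraries in each of the 4 groups. The control groups were not costimulated, and the labels of the LPS+ATP groups give 4 hours of lipopolysaccharide (LPS), a bacterial cell wall component, before 30 min of ATP, while the methods of the study give longer times for both. The marrow came from C57BL/6 mice aged 8 weeks, the wild-type and Nlrp3-/- mice came from different suppliers, and nothing in the sources used here says whether the 3 libraries of a group were separate animals or cultures, so that p-values measure only the spread between these libraries.

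STATs reside in the cytoplasm until a cytokine receptor and its Janus kinases (JAKs) phosphorylate them, after which they form dimers, enter the nucleus and activate genes. STAT2 acts with IRF9 downstream of type I interferons, STAT3 mainly downstream of IL-6 and IL-10 family cytokines, STAT4 downstream of IL-12, STAT5A downstream of GM-CSF and related cytokines, and STAT6 downstream of IL-4 and IL-13. SOCS proteins and CIS, the product of Cish, are made in response to the same cytokines and dampen the signal at the receptor or the kinase, so that they form a negative feedback loop. In macrophages, SOCS1 is known for limiting interferon signals and SOCS3 for limiting signals through the IL-6 receptor subunit gp130.

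Promoter windows of 300 bases, from 250 bases before to 50 after the start of the transcript, were available from RefSeq (GRCm38.p6) for 8 of the 9 members, in 10 windows, and not for Socs2. They were searched on both strands for the STAT motif TTCNNNGAA, which reads the same on either strand, and for the core of the interferon-stimulated response element (ISRE), GAAANNGAAA, whose reverse complement is TTTCNNTTTC. The STAT motif was held by 8.3% of all 32851 windows of the same length and the ISRE core by 3.44%. The 4 windows printed here belong to the members with the largest changes in level after LPS+ATP, and capitals mark the matches.
Stat2 promoter, chr10:128270248-128270547, plus strand: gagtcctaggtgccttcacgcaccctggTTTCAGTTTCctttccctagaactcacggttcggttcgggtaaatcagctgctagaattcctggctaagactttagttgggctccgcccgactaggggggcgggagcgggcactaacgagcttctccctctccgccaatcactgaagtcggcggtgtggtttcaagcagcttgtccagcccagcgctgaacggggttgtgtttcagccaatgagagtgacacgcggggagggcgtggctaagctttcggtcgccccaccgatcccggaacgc
Socs1 promoter, chr16:10785487-10785786, minus strand: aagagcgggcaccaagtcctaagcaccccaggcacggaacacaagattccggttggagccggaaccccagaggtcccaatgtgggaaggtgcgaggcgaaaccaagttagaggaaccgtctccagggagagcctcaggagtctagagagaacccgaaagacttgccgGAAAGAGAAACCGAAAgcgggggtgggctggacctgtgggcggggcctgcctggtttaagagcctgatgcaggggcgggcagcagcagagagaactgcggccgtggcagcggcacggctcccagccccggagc
Socs3 promoter, chr11:117969317-117969616, minus strand: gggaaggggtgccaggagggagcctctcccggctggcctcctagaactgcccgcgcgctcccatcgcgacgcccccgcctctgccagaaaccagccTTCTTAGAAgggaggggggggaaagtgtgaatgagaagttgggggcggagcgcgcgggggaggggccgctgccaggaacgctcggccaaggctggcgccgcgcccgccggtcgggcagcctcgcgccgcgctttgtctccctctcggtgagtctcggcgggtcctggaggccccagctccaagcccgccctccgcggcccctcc
Cish promoter, chr9:107296409-107296708, plus strand: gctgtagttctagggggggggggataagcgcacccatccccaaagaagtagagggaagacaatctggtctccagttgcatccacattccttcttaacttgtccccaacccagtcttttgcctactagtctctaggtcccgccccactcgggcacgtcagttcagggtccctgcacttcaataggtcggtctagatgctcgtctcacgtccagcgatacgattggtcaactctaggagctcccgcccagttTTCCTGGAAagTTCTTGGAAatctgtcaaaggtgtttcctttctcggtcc
The Socs1 window held 2 overlapping ISRE cores, at 83 to 74 and 77 to 68 bases before the start, and 0.225% of all windows held 2 or more. The Cish window held 2 STAT motifs just after the start, from base 1 to 9 and from base 12 to 20, and 0.457% of all windows held 2 or more. The Socs3 window held 1 STAT motif at 154 to 146 bases before the start, and the Stat2 window held 1 ISRE core at 222 to 213 bases before it. Of the other windows, 1 of the 2 for Stat4 held an ISRE core, and those of Stat3, Stat5a and Stat6 held neither. These matches describe the letters in the windows, and binding was not measured.

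Levels were given as FPKM, the fragments of a gene scaled to its length and to the mapped fragments of the library. Nlrp3 itself was listed at 0 in all 6 Nlrp3-/- libraries, against 9.24 to 33.6 FPKM in wild-type cells. FPKM does not keep the number of reads. The most common ratio between libraries of the very low values of the same gene gave a relative depth, which varied by a factor of 1.22. All 8 macrophage markers were above 1 FPKM in every library. Their levels differed by genotype, with Cd68 at 1450 FPKM in wild-type and 877 in Nlrp3-/- control and Csf1r at 253 and 164. Mertk, the only one with a higher mean in Nlrp3-/- control, was 32.4 and 34.1 (means, n = 3). The T cell markers Cd3d, Cd3e, Cd3g and Cd8a were near 0. Cd4, of the same list, was 9.25 FPKM in wild-type and 21.5 in Nlrp3-/- control and 3.75 and 6.53 after LPS+ATP (means, n = 3). Summed mast cell and basophil markers were 1.89 to 2.41 FPKM in wild-type control and 10.1 to 11.5 in Nlrp3-/- control. B cell markers summed to 1.25 to 1.57 against 4.08 to 5.11, and dendritic cell markers to 0.789 to 1.25 against 2.56 to 3.37. The summed FPKM of 8 fibroblast markers was 216 to 224 in wild-type control and 1434 to 1452 in Nlrp3-/- control, and 223 to 228 against 1072 to 1088 after LPS+ATP. The sum of 8 markers of neutrophils and their precursors was 331 to 367 against 1782 to 1830 in control and 328 to 342 against 703 to 711 after LPS+ATP. Without Lcn2, which was 9.73 to 10.3 FPKM in wild-type control and 215 to 222 after LPS+ATP, the sum of the other 7 was 109 to 126 against 487 to 517 after LPS+ATP. Among them Mpo was 2.09 FPKM in wild-type and 53.3 in Nlrp3-/- control and Elane 4.14 and 65.5 (means, n = 3). Ly6g did not exceed 0.781 FPKM in any library. In wild-type cells the female-specific Xist did not exceed 0.0416 FPKM and the Y-linked Ddx3y was 7.72 or more, whereas without Nlrp3 Xist was 32.8 to 56.3 FPKM and Ddx3y 0, so that genotype and the sex of the donor mice cannot be told apart. The part of these differences in the genotype comparisons of the STAT and SOCS genes was not tested. In bulk RNA, fewer cells of a type and less RNA per cell cannot be told apart.

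In unstimulated wild-type BMDMs, Stat6 had the highest level of the members, at 65.6 ± 2.05 FPKM (SD, n = 3 here and for the following group values). Stat3 (13.7 ± 0.251), Stat2 (13.4 ± 0.573), Socs3 (8.87 ± 0.561) and Stat5a (6.44 ± 0.428) followed, and the libraries of Stat3 and Stat2 overlapped. Stat4, Socs1, Cish and Socs2 were each at 1.48 FPKM or below in every wild-type control library. After LPS+ATP, Socs3 had the highest level, and Stat2 exceeded Stat6. Of the summed FPKM of the 5 STAT members, Stat6 held 65.4% ± 0.419 in wild-type control and 28.4% ± 0.26 after LPS+ATP, while Stat2 held 13.4% ± 0.267 in control and 67.7 of a summed 135 FPKM after LPS+ATP. In Nlrp3-/- BMDMs the share of Stat6 was 61.8% ± 1.06 in control and 29.4% ± 0.645 after LPS+ATP, and that of Stat2 was 10.6% ± 0.65 and then 47.9% ± 0.507. Socs3 held between 83.3% and 91.4% of the summed FPKM of the 4 SOCS members in the mean of every group.

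**Figure D1:**
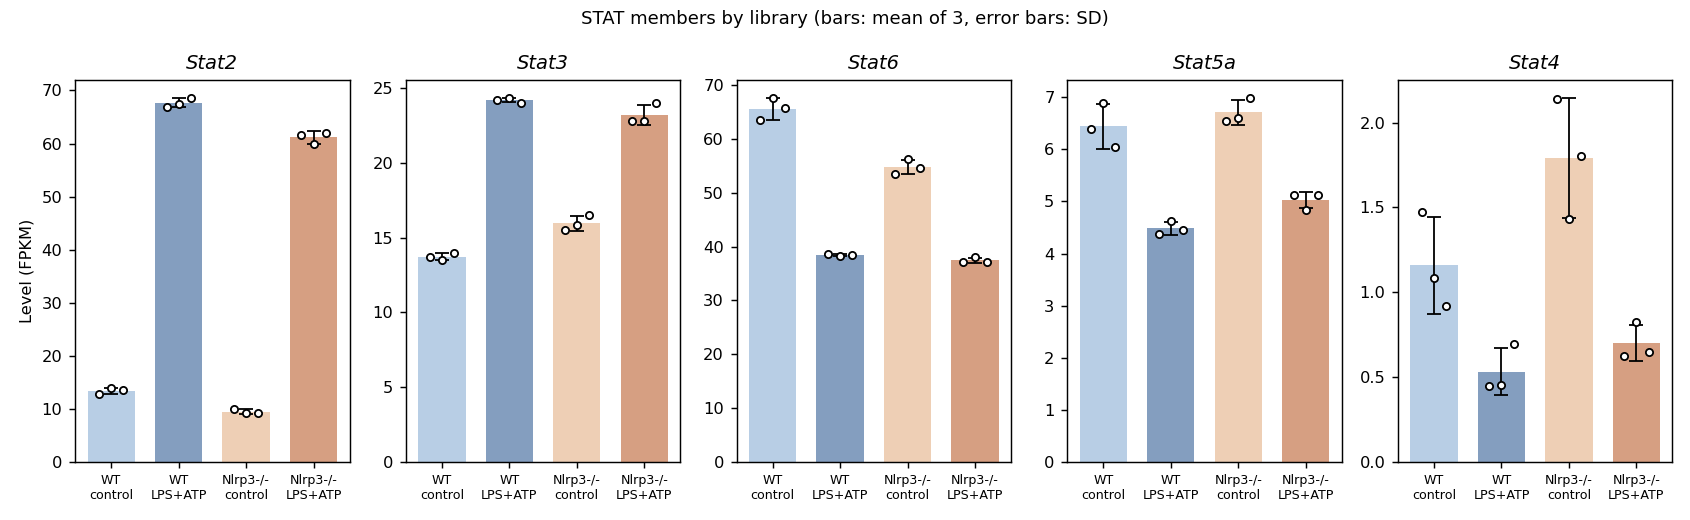
Level in FPKM (vertical axes, linear from 0) of the 5 STAT members in wild-type (WT) and Nlrp3-/- BMDMs, in control and after LPS+ATP. Points are single libraries, bars the mean of 3 libraries and error bars the SD. Stat2 and Stat3 stand higher after LPS+ATP in both genotypes, and Stat6, Stat5a and Stat4 lower.

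Stimulation was compared first in wild-type cells, to see which members LPS+ATP altered. Differences were tested with limma on log2(FPKM + 1), over the 12622 genes that reached 1 FPKM in 3 or more libraries. Fold changes on this scale understate the change of genes with low FPKM. A gene was called where the Benjamini-Hochberg adjusted p was under 0.05 and the log2 fold change at least 1 in size. Of the 9 members 8 were tested. Socs2 was not, with at most 0.726 FPKM in any library, while Socs1 and Cish passed the filter only through their LPS+ATP libraries and Stat4 only through its control libraries. For Socs1, Cish and Stat4 being tested thus nearly fixed the direction with stimulation. The counts, medians and overlaps that follow include these genes. In wild-type BMDMs 4 of the 8 (Stat2, Socs1, Socs3 and Cish) were called higher and 0 lower, against 8.25% of all genes tested called higher and 11.2% lower. By adjusted p alone 5 were higher and 3 lower, against 23.3% and 53.1% of all genes. In Nlrp3-/- BMDMs 3 (Stat2, Socs1 and Socs3) were called higher and 0 lower, against 6.64% and 8.21%, and by adjusted p alone again 5 were higher and 3 lower, against 20.6% and 53.8%. The median log2 fold change of the 8 members was 1.27 in wild-type and 0.73 in Nlrp3-/- cells, beside -0.25 and -0.24 over all genes tested. The libraries of control and LPS+ATP did not overlap for any of the 8 members in either genotype, which was true of 78.1% and 77.4% of all genes.

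**Figure D2:**
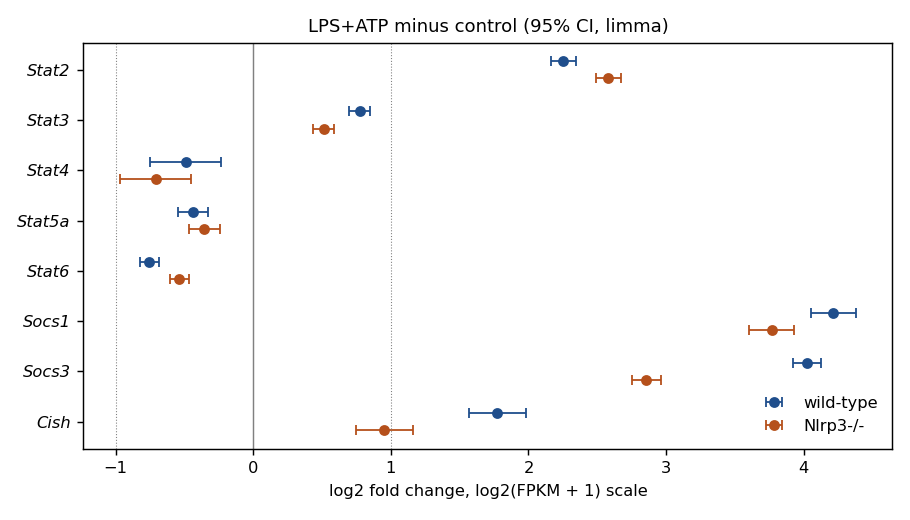
Difference between LPS+ATP and control BMDMs of the 8 tested members (horizontal axis, log2 fold change on the log2(FPKM + 1) scale) in wild-type and Nlrp3-/- cells. Points are limma estimates, bars their 95% confidence intervals and dotted lines the 2-fold limit. Socs1, Socs3, Stat2 and Cish lie to the right, with Cish at 0.95 in Nlrp3-/- cells just under the limit, and Stat4, Stat5a and Stat6 to the left.

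Stat2, the partner of IRF9 in the interferon response, rose from 12.8, 13.9 and 13.6 FPKM in the wild-type control libraries to 67.0, 67.5 and 68.6 after LPS+ATP. In Nlrp3-/- cells it was 9.97, 9.13 and 9.12 in control and 61.6, 59.8 and 62.0 after LPS+ATP. No library of any group overlapped another group, in the order Nlrp3-/- control, wild-type control, Nlrp3-/- LPS+ATP and wild-type LPS+ATP from low to high. The mean FPKM rose 5.05-fold in wild-type and 6.50-fold in Nlrp3-/- cells. The log2 fold changes were 2.25 ± 0.04 (SE, limma adjusted p = 1.138e-12) and 2.58 ± 0.04 (adjusted p = 4.881e-13).

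Stat3, which carries the IL-6 and IL-10 signals, was 13.7, 13.5 and 14.0 FPKM in wild-type control and 24.2, 24.3 and 24.0 after LPS+ATP. It was 15.5, 15.9 and 16.5 in Nlrp3-/- control and 22.8, 22.8 and 24.0 after LPS+ATP. The control libraries of both genotypes lay below all LPS+ATP libraries, and the highest stimulated Nlrp3-/- library came close to the lowest stimulated wild-type library. The log2 fold changes of 0.77 ± 0.03 in wild-type (SE, limma adjusted p = 2.273e-09) and 0.51 ± 0.03 in Nlrp3-/- cells (adjusted p = 1.17e-07) did not reach the 2-fold limit.

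Stat6, the transducer of IL-4 and IL-13 signals, fell from 63.4, 67.5 and 65.8 FPKM in wild-type control to 38.7, 38.3 and 38.4 after LPS+ATP. In Nlrp3-/- cells it fell from 53.5, 56.2 and 54.6 to 37.2, 38.0 and 37.2. The stimulated groups lay close together, and the control groups were apart, with wild-type above Nlrp3-/-. The log2 fold changes were -0.75 ± 0.03 (SE, limma adjusted p = 1.045e-09) and -0.54 ± 0.03 (adjusted p = 2.857e-08). The ratio of Stat6 to Stat2 FPKM was 4.89 ± 0.0682 in wild-type control and 0.568 ± 0.00871 after LPS+ATP, and 5.84 ± 0.414 and 0.613 ± 0.0193 in Nlrp3-/- cells (SD, n = 3).

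Stat5a, one of the STATs used by GM-CSF and IL-3, was 6.39, 6.89 and 6.04 FPKM in wild-type control and 4.38, 4.63 and 4.45 after LPS+ATP. It was 6.55, 6.60 and 6.99 in Nlrp3-/- control and 5.12, 4.84 and 5.12 after LPS+ATP. The control groups of both genotypes overlapped, and all stimulated libraries were lower. It fell by 0.44 ± 0.05 on the log2 scale in wild-type (SE, limma adjusted p = 9.809e-06) and by 0.36 ± 0.05 in Nlrp3-/- cells (adjusted p = 6.283e-05), below the 2-fold limit in both. With median-ratio scaling the latter did not pass the test, at -0.11 (adjusted p = 0.09086). Stretches over 32% of its longest transcript match another gene at 90% identity or more, so that its level is uncertain where reads were shared.

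Stat4, which transmits IL-12 signals and is best known from T and NK cells, was low throughout. It was 1.48, 1.08 and 0.918 FPKM in wild-type control, 0.450, 0.452 and 0.695 after LPS+ATP, 2.14, 1.43 and 1.80 in Nlrp3-/- control and 0.626, 0.825 and 0.650 after LPS+ATP. The LPS+ATP libraries were below the control libraries in each genotype, and the genotypes overlapped within each state. It fell by 0.49 ± 0.12 on the log2 scale in wild-type (SE, limma adjusted p = 0.002617) and by 0.71 ± 0.12 in Nlrp3-/- cells (adjusted p = 0.0002112), and mean FPKM fell 2.18-fold and 2.56-fold. Under the alternatives its log2 fold change in Nlrp3-/- cells ranged from -1.23 to -0.54, on either side of the fold limit. Exons of the predicted gene Gm28177 overlap it on the same strand over 1033 of its 3872 exon bases, and that gene moved the other way, from between 3.68 and 4.95 FPKM in wild-type control to between 24.4 and 28.8 after LPS+ATP. How the counting divided reads between them is not given in the sources used here.

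Socs3, which binds gp130 and JAKs and blocks IL-6 type signals, was 9.37, 8.99 and 8.26 FPKM in the wild-type control libraries and 161, 158 and 159 after LPS+ATP. In Nlrp3-/- cells it was 19.1, 17.4 and 17.0 in control and 135, 137 and 134 after LPS+ATP. The 4 groups did not overlap, and Nlrp3-/- lay above wild-type in control and below it after LPS+ATP. Mean FPKM rose 18.0-fold in wild-type and 7.58-fold in Nlrp3-/- cells, and the log2 fold changes were 4.02 ± 0.05 (SE, limma adjusted p = 3.131e-14) and 2.86 ± 0.05 (adjusted p = 6.408e-13). Beside Stat3, the ratio of Socs3 to Stat3 FPKM was 0.647 ± 0.0495 and then 6.59 ± 0.068 in wild-type, and 1.12 ± 0.0985 and then 5.84 ± 0.232 in Nlrp3-/- cells (SD, n = 3).

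**Figure D3:**
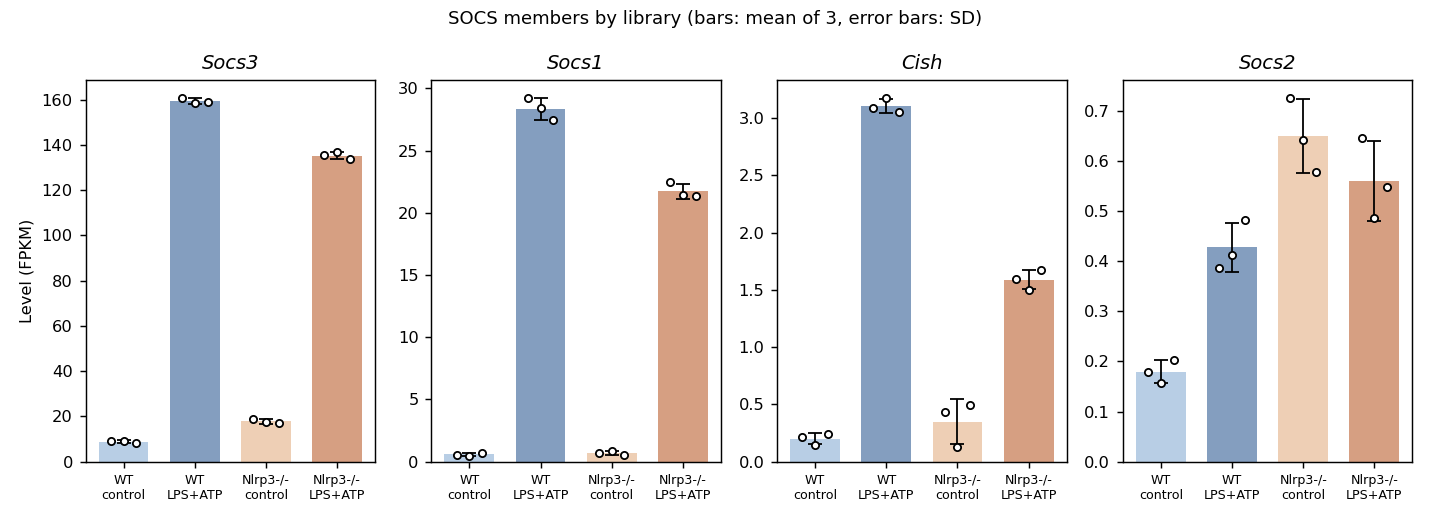
Level in FPKM (vertical axes, linear from 0) of the 4 SOCS members in wild-type (WT) and Nlrp3-/- BMDMs, in control and after LPS+ATP. Points are single libraries, bars the mean of 3 libraries and error bars the SD. Socs3, Socs1 and Cish are higher after LPS+ATP in both genotypes and highest in stimulated wild-type cells, and Socs2 stays under 1 FPKM.

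Socs1, the inhibitor of JAKs downstream of the interferon receptors, was 0.539, 0.483 and 0.731 FPKM in wild-type control and 29.2, 28.4 and 27.4 after LPS+ATP. It was 0.661, 0.838 and 0.524 in Nlrp3-/- control and 22.4, 21.4 and 21.3 after LPS+ATP. The control groups overlapped, and the stimulated wild-type libraries lay above the stimulated Nlrp3-/- libraries. The log2 fold changes were 4.21 ± 0.07 in wild-type (SE, limma adjusted p = 8.152e-13) and 3.77 ± 0.07 in Nlrp3-/- cells (adjusted p = 2.614e-12). Mean FPKM rose 48.5-fold and 32.2-fold, from a level below 1 FPKM.

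Cish, whose product competes with STAT5 for docking sites on cytokine receptors, was 0.215, 0.148 and 0.242 FPKM in wild-type control and 3.09, 3.18 and 3.05 after LPS+ATP. It was 0.431, 0.124 and 0.493 in Nlrp3-/- control and 1.59, 1.503 and 1.67 after LPS+ATP. The control groups overlapped and the stimulated groups did not, with wild-type higher. It rose by 1.77 ± 0.09 on the log2 scale in wild-type (SE, limma adjusted p = 1.055e-08) and by 0.95 ± 0.09 in Nlrp3-/- cells (adjusted p = 3.129e-06), and the second was under the 2-fold limit with a pseudocount of 1 and over it, at 2.03, with a pseudocount of 0.1. It was also over the limit, at 1.03, without Nlrp3-/- control replicate 3. Exons of 2 predicted genes on the opposite strand overlap it, and the sources used here do not say whether the counting used strand.

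Socs2, which limits growth hormone signals, was 0.179, 0.157 and 0.203 FPKM in wild-type control and 0.387, 0.413 and 0.483 after LPS+ATP. It was 0.726, 0.643 and 0.579 in Nlrp3-/- control and 0.645, 0.487 and 0.548 after LPS+ATP. The wild-type control libraries were the lowest, and both Nlrp3-/- groups overlapped. In a fit without the filter on low values the log2 fold change with stimulation was 0.27 in wild-type (limma adjusted p = 0.00204) and -0.08 in Nlrp3-/- cells (adjusted p = 0.2969), and Nlrp3-/- exceeded wild-type by 0.48 in control (adjusted p = 8.007e-05).

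Genotype was then compared within each state, to see which members differed without Nlrp3. In control BMDMs 0 of the 8 members were called by limma in either direction, against 6.71% of all genes called. By adjusted p alone 3 were higher in Nlrp3-/- cells (Stat3, Stat4 and Socs3) and 2 lower (Stat2 and Stat6), against 33.3% and 14.5% of all genes. The libraries of 4 of the 8 members did not overlap between genotypes, against 56% of all genes. Socs3 had the largest difference of the 8, at 0.93 ± 0.05 (SE, adjusted p = 2.637e-08), with mean FPKM 2.01-fold higher in Nlrp3-/- cells. Stat2 differed by -0.47 ± 0.04 (adjusted p = 2.477e-06) and Stat6 by -0.26 ± 0.03 (adjusted p = 3.499e-05). Stat3 differed by 0.20 ± 0.03 (adjusted p = 0.0004871), and by 0.06 (adjusted p = 0.1948) with median-ratio scaling. Stat4 differed by 0.37 ± 0.12 (adjusted p = 0.02252) with overlapping libraries. It did not pass without wild-type control replicate 2 or 3 or Nlrp3-/- control replicate 1 or 3, and the difference was between 0.28 and 0.47 when any 1 library was left out. With other processing choices included, Stat4 did not pass in 7 of 20 alternatives, with differences between 0.27 and 0.59.

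Stat5a, Socs1 and Cish did not pass the test between genotypes in control cells. The 95% confidence intervals of their log2 differences were -0.06 to 0.16 for Stat5a, -0.08 to 0.24 for Socs1 and -0.05 to 0.36 for Cish. For Cish the difference was 0.16 with all libraries and 0.28 (limma adjusted p = 0.003978) without Nlrp3-/- control replicate 2, in which its level was the lowest of all 12 libraries.

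After LPS+ATP again 0 of the 8 members were called between genotypes by limma, against 5.05% of all genes. By adjusted p alone 1 was higher in Nlrp3-/- cells (Stat5a) and 4 lower (Stat2, Socs1, Socs3 and Cish), against 35.9% and 12.6% of all genes. The libraries did not overlap for 7 of the 8, against 57.9% of all genes. Cish differed by -0.67 ± 0.09 (SE, adjusted p = 0.00013), with mean FPKM 1.95-fold lower in Nlrp3-/- cells. Socs1 differed by -0.37 ± 0.07 (adjusted p = 0.001665), and at -0.38 did not pass with a pseudocount of 0.1 (adjusted p = 0.05344). Socs3 differed by -0.24 ± 0.05 (adjusted p = 0.00162) and Stat2 by -0.14 ± 0.04 (adjusted p = 0.01323). Stat5a was higher by 0.13 ± 0.05 (adjusted p = 0.04599), which did not pass in 13 of 21 alternatives and turned its sign in 1 other.

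Stat3, Stat4 and Stat6 did not pass the test between genotypes after LPS+ATP. The 95% confidence intervals of their log2 differences were -0.13 to 0.02, -0.11 to 0.41 and -0.10 to 0.03. With median-ratio scaling Stat3 and Stat6 passed, at -0.24 (limma adjusted p = 0.0001329) and -0.22 (adjusted p = 0.0001551), while that scaling moved the median of all genes by -0.15.

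**Figure D4:**
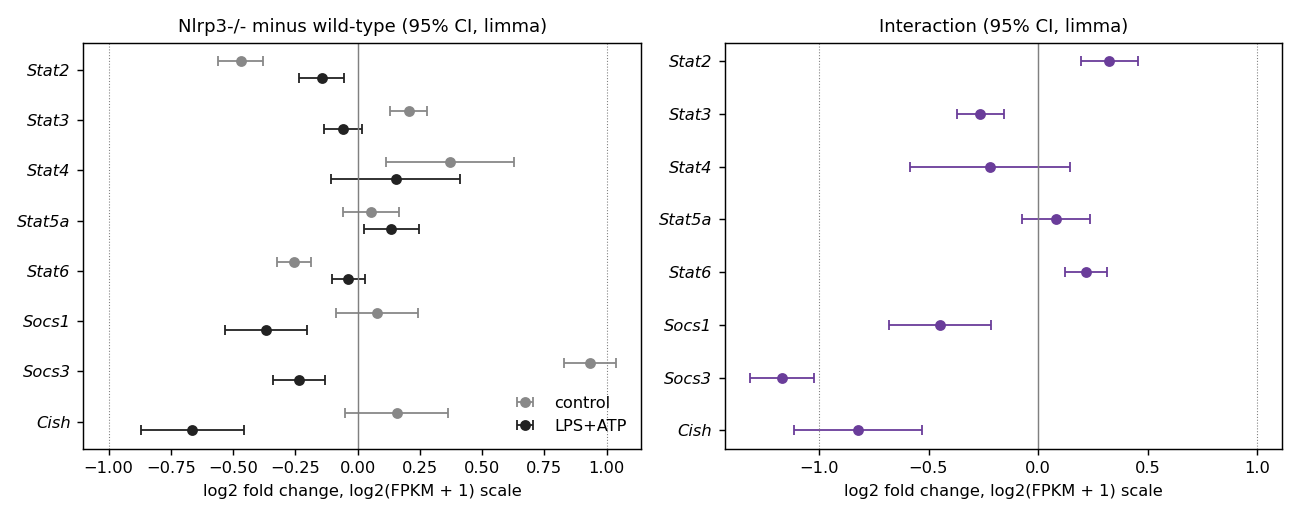
Left, difference between Nlrp3-/- and wild-type BMDMs of the 8 tested members in control and after LPS+ATP, and right, the interaction of genotype and stimulation (horizontal axes, log2(FPKM + 1) scale). Points are limma estimates, bars 95% confidence intervals and dotted lines the 2-fold limit. Socs3 lies at 0.93 in control and at -0.24 after LPS+ATP, and its interaction at -1.17 is the one past the limit.

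The interaction term, which is the difference between the responses of both genotypes to LPS+ATP, was called by limma for 1 member, Socs3, and 0 others, against 1.43% of all genes called lower and 0.721% called higher. It was -1.17 ± 0.07 for Socs3 (SE, adjusted p = 6.148e-07), where Nlrp3-/- cells started from a higher level and ended at a lower one. By adjusted p alone 4 members were lower (Stat3, Socs1, Socs3 and Cish) and 2 higher (Stat2 and Stat6), against 13% and 14.7% of all genes. The term for Cish was -0.82 ± 0.13 (adjusted p = 0.0009031) and passed the 2-fold limit, at -1.39, with a pseudocount of 0.1. Socs1 had -0.45 ± 0.10 (adjusted p = 0.008798) and, at -0.56, did not pass at that pseudocount (adjusted p = 0.07712). The terms of Stat2, Stat3 and Stat6 were 0.33 ± 0.06 (adjusted p = 0.001773), -0.26 ± 0.05 (adjusted p = 0.002186) and 0.22 ± 0.04 (adjusted p = 0.00338). On the log2 scale the genotypes lay further apart in control than after LPS+ATP for Stat2 and Stat6, with the wild-type mean higher in both states. The terms of Stat4 and Stat5a did not pass, with 95% confidence intervals of -0.58 to 0.15 and -0.08 to 0.24. The control and LPS+ATP groups enter several of these comparisons, so that the comparisons share samples.

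The genes around the members in the pathway were taken from lists, whose counts stand beside the shares of all genes called with stimulation, 8.25% higher and 11.2% lower in wild-type and 6.64% and 8.21% in Nlrp3-/- cells, and medians of -0.25 and -0.24. Of the 4 JAK kinases 1, Jak2, was called higher with stimulation in both genotypes. Jak2 was 12.9 ± 0.689 FPKM in wild-type control and 105 ± 3.19 after LPS+ATP, and 22.0 ± 0.802 and 119 ± 5.14 in Nlrp3-/- cells (SD, n = 3). Its log2 fold changes were 2.94 and 2.38, and in control cells it was higher in Nlrp3-/- by 0.73 (limma adjusted p = 1.791e-07). Of 4 further SOCS genes (Socs4, Socs5, Socs6 and Socs7) 0 were called in any of the 5 comparisons. By adjusted p alone 3 of them were lower with stimulation in each genotype, against 53.1% of all genes in wild-type and 53.8% in Nlrp3-/- cells. The log2 fold changes were -0.86 for Socs6 in wild-type (limma adjusted p = 7.234e-05) and -0.67 for Socs5 in Nlrp3-/- cells (adjusted p = 7.125e-06). In control cells Socs5 was higher in Nlrp3-/- by 0.54 (adjusted p = 8.425e-05) while Socs6 was lower, at -0.63 (adjusted p = 0.001724).

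Of 18 cytokines that signal through STATs, 12 were tested, and 12 were called higher in wild-type and 10 in Nlrp3-/- cells, with 0 lower. Of the 12, 8 would not have passed the filter on their control libraries alone, so that for these being tested nearly fixed the direction. Il6, the main STAT3 ligand of the list, was 0.0446 ± 0.0334 FPKM in wild-type control and 41.6 ± 0.531 after LPS+ATP, and 38.0 ± 1.238 in stimulated Nlrp3-/- cells (SD, n = 3). Il12b, the shared subunit of IL-12 and IL-23, reached 36.9 ± 0.735 FPKM in stimulated wild-type and 12.03 ± 0.709 in stimulated Nlrp3-/- cells, with an interaction of -2.21 (limma adjusted p = 5.946e-07). Il27, a STAT-activating cytokine subunit, reached 44.0 ± 0.246 and 23.5 ± 1.22 FPKM, with an interaction of -1.11 (adjusted p = 0.003101). Of 23 tested receptor genes 5 were called higher and 4 lower in wild-type, and 3 and 4 in Nlrp3-/- cells, against 8.25% and 11.2%, and 6.64% and 8.21%, of all genes. Il15ra and Il12rb1, receptor chains for IL-15 and IL-12, rose by 2.58 and 1.83 on the log2 scale in wild-type cells. Il12rb1, at most 0.76 FPKM in any control library, passed the filter only through its LPS+ATP libraries. Il12rb2, counted among the lower receptors, passed only through its control libraries, so that for both genes being tested nearly fixed the direction. Ifngr1, the ligand-binding chain of the interferon-γ receptor, fell from 47.9 ± 1.92 to 10.3 ± 0.556 FPKM in wild-type and from 51.17 ± 2.653 to 15.5 ± 2.58 in Nlrp3-/- cells, and Il6ra fell from 11.4 ± 0.54 to 2.64 ± 0.124 and from 7.97 ± 0.412 to 2.31 ± 0.0677.

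Of 11 other inhibitors of the pathway 1 was called higher and 1 lower in wild-type, and 1 and 0 in Nlrp3-/- cells, which is near the share of all genes (8.25% and 11.2% in wild-type). Usp18, which restrains the interferon receptor, rose by 4.46 and 4.85 on the log2 scale in wild-type and Nlrp3-/- cells. Sh2b3, an adaptor that limits JAK signals, was called lower in wild-type cells, at -1.16, and was at -0.91 in Nlrp3-/- cells. The other 9 of the 11 inhibitors were not called in wild-type.

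Of 18 targets of STAT2 with IRF9, 17 were called higher in wild-type and 18 in Nlrp3-/- cells, with a median log2 fold change of 4.45 and 4.79. Over all genes tested 8.25% and 6.64% were called higher, with medians of -0.25 and -0.24. Rsad2, an antiviral enzyme, rose from 10.2 ± 0.607 to 903 ± 14.9 FPKM in wild-type and from 4.30 ± 0.323 to 386 ± 5.95 in Nlrp3-/- cells, and Isg15, a ubiquitin-like protein, from 14.2 ± 1.95 to 934 ± 29.3 and from 9.70 ± 0.883 to 740 ± 21.5. In control cells 4 of the 18 were called lower in Nlrp3-/- and 0 higher, against 6.71% of all genes called in either direction. By adjusted p alone 17 of the 18 were lower, against 14.5% of all genes. Ifit3, an interferon-induced antiviral protein, had the one called interaction of the list at 1.41 (limma adjusted p = 1.379e-07), with 16.6 ± 0.48 FPKM in wild-type control and 7.15 ± 0.52 in Nlrp3-/- control.

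Of 10 targets of STAT3, 5 were called higher and 1 lower in wild-type, and 3 and 1 in Nlrp3-/- cells, with medians of 1.06 and 0.69 beside -0.25 and -0.24 over all genes. Of all genes 8.25% were called higher and 11.2% lower in wild-type, and 6.64% and 8.21% in Nlrp3-/- cells. Il1rn, the IL-1 receptor antagonist, rose by 4.25 and 3.77 on the log2 scale, Tnip3, an inhibitor of NF-κB, rose by 1.77 in wild-type, and Etv3, a transcriptional repressor, fell by 1.43 and 1.19. Of 4 targets of STAT4 2 were tested. Ifng was at 0 in wild-type control and rose to 3.44 ± 0.233 FPKM, and Il12rb2, the second IL-12 receptor chain, fell by 1.53. Ifng passed the filter only through its LPS+ATP libraries and Il12rb2 only through its control libraries, so that being tested nearly fixed both directions. Of 7 tested targets of STAT5, 2 were called higher and 1 lower in wild-type, and 1 and 1 in Nlrp3-/- cells, beside those same shares. The kinase gene Pim1 rose from 23.9 ± 0.305 to 75.9 ± 1.71 FPKM in wild-type, the cytokine gene Osm from 4.24 ± 0.0776 to 11.8 ± 0.456, and the cyclin gene Ccnd1 fell from 15.5 ± 0.891 to 1.78 ± 0.142.

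Of 10 tested targets of STAT6, 3 were called higher and 5 lower in wild-type, and 1 and 4 in Nlrp3-/- cells, with medians of -0.79 and -0.44 beside -0.25 and -0.24 over all genes. The shares of all genes called higher and lower were 8.25% and 11.2% in wild-type and 6.64% and 8.21% in Nlrp3-/- cells. Pparg, a lipid-sensing nuclear receptor, fell by 3.22 and 3.02 on the log2 scale, and Mrc1, the mannose receptor, fell by 2.69 and 2.21. Arg1, which degrades arginine, moved the other way in wild-type cells, from 1.14 ± 0.0896 to 16.4 ± 0.386 FPKM, and was 12.6 ± 0.675 and 20.9 ± 1.03 in Nlrp3-/- cells, with an interaction of -2.35 (limma adjusted p = 7.489e-09). Ccl22, a chemokine, rose by 1.51 and 1.60. Pparg, Mgl2 and Clec10a, counted among the lower genes in wild-type, passed the filter only through their control libraries. For these genes being tested nearly fixed the direction. The list held genes called in both directions, and Stat6 itself was lower after LPS+ATP in both genotypes.

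**Figure D5:**
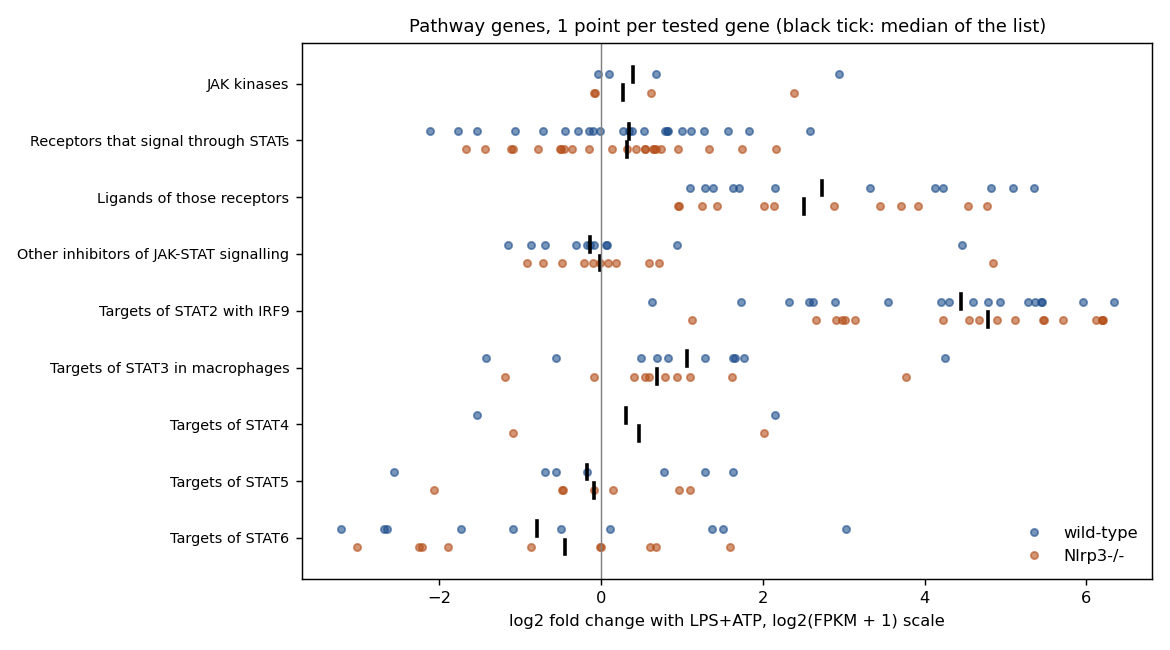
Change with LPS+ATP of the tested genes of 9 pathway lists (rows) in wild-type and Nlrp3-/- BMDMs (horizontal axis, log2 fold change on the log2(FPKM + 1) scale). Each point is 1 gene and the black ticks are list medians. The ligands and the targets of STAT2 with IRF9 lie to the right of 0, and the targets of STAT6 on both sides with a median of -0.79 in wild-type.

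The genes whose log2(FPKM + 1) profile over the 12 libraries was most like that of each member were found by Pearson's r, given here as a description of libraries that share 4 groups. Stat2 was nearest to Znfx1 (r = 0.9996) and Irf7 (0.9995), Socs1 to Cd69 (0.9993) and Il1a (0.9989), and Socs3 to Itga5 (0.9994) and Ptgs2 (0.9989). Cish was nearest to Mdm2 (0.9935) and Tnip3 (0.9926), Stat3 to Cycs (0.9971) and Ifrd1 (0.9961), and Stat6 to Zmynd8 (0.9975) and Man2b1 (0.9973). Stat5a, Stat4 and Socs2 were less closely followed, with Accs (0.9893), Zfp280c (0.986) and Kdm5b (0.9666) nearest. Between 0 and 272 genes had an r above 0.99 with a member, the most for Socs1 and 0 for Stat4, Stat5a and Socs2.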

How the data were processed

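RNA of wild-type and Nlrp3-/- BMDMs, in control and after LPS+ATP, was sequenced in 12 libraries. The authors deposited 1 table of FPKM per gene and library. The submitters' processing notes name GRCm39 and DESeq2 1.24.0. The aligner, the counter, the annotation and the use of strand are not given in the sources used here. FPKM keeps no counts, so no count test was made, the depth in reads is unknown, and the spread of 3 libraries per group sets the precision. All 12 columns were matched to labels and 0 were left unused.

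The test was that of limma (version 3.58.1, in R 4.3.3) on log2(FPKM + 1), in a fit of 4 group means with a trend in the variance. Genes entered it when they reached 1 FPKM in 3 or more libraries. P-values were adjusted by Benjamini-Hochberg over all 12622 genes tested. The fit was first tested on simulated data. The members, the pathway and marker lists and the tests were chosen with earlier results of these data known. All members were named, and of each list the 2 called genes that rose most and the 2 that fell most in wild-type, and any with a called interaction. The further STAT genes of the family list are not reported here.

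Promoters came from RefSeq (GRCm38.p6), exon overlaps from GENCODE M21 and near copies from blastn 2.17.0+. Python 3.11.15 with pandas 2.3.3, numpy 2.4.6 and matplotlib 3.10.9 drew the plots. As alternatives, the filter was dropped or raised to 5 FPKM, the pseudocount was set to 0.1, the fold limit was dropped, values were rescaled (TPM, upper quartile, median ratio), a replicate block was added, the trend was left out, the fit was limited to the groups compared, and each library was left out in turn.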

Additional observations from a re-analysis of the deposited data

Results flagged for a closer look

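The response of 6 members to LPS+ATP differed between genotypes by the interaction term of limma on log2(FPKM + 1), which was computed over all genes tested. The terms, as Nlrp3-/- minus wild-type, were -1.17 for Socs3 (adjusted p = 6.148e-07), -0.82 for Cish (adjusted p = 0.0009031) and -0.45 for Socs1 (adjusted p = 0.008798). They were 0.33 for Stat2 (adjusted p = 0.001773), -0.26 for Stat3 (adjusted p = 0.002186) and 0.22 for Stat6 (adjusted p = 0.00338). Of all genes tested, 14.7% had a higher and 13% a lower interaction past the same adjusted p. Groups of 3 were not tested for outlying libraries.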

How the results depend on the processing

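Over 40 log2 fold changes of the 8 tested members, 822 values were computed under the alternatives, of which 790 kept their direction and their side of the adjusted p threshold, 24 no longer passed it, 5 newly passed it and 3 turned their sign. The sign turned for Stat5a only, between genotypes in control with upper-quartile scaling (-0.0104) and median-ratio scaling (-0.0801) and between genotypes after LPS+ATP with median-ratio scaling (-0.024). That scaling moved the median of all genes by 0.25 and 0.23 with stimulation in wild-type and Nlrp3-/- cells and by -0.12 and -0.15 between genotypes, and Socs1, Socs3 and Stat2 with stimulation in both genotypes, and Cish in wild-type, stayed past both thresholds in all alternatives in which they were tested. Cish in Nlrp3-/- cells stayed past the adjusted p and ranged from 0.82 to 2.03 on the log2 scale, on either side of the fold limit. Without the fold limit, 5 members instead of 0 were counted between genotypes in control and 5 instead of 0 after LPS+ATP, 8 instead of 4 with stimulation in wild-type, 8 instead of 3 in Nlrp3-/- cells, and 6 instead of 1 for the interaction. With a pseudocount of 0.1 the counts were 1 between genotypes in control (Socs3), 5 with stimulation in Nlrp3-/- cells and 2 for the interaction. With TPM they were 5 with stimulation in Nlrp3-/- cells and 2 for the interaction. In both settings the 5 were Stat2, Socs1, Socs3 and Cish, called higher, and Stat4, called lower. TPM values were larger than FPKM, which summed to between 283278 and 299393 per library, and the pseudocount stayed at 1. It thus weighed less on low values with TPM than in the main fit, so that the 2 settings are alike in this. The cause of the added calls was not tested. Leaving out any 1 library gave counts of 0 between genotypes in both states, 4 with stimulation in wild-type, 3 to 4 in Nlrp3-/- cells and 1 for the interaction. The compared groups alone could not give an interaction, and Stat4 and Cish were not tested at a filter of 5 FPKM.

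Replicate numbers are shared by the groups, but deviations of same-numbered libraries from their group means correlated between -0.057 and 0.053 over 12 pairs, with 0 over 0.1, and 3 of 12 libraries correlated best with their own number. With a replicate block the counts of called members were 0, 0, 4, 3 and 1 in the 5 comparisons, in the order given above, and the one result that changed its side of the adjusted p threshold was Stat5a between genotypes after LPS+ATP (adjusted p = 0.07292). The depth in reads is unknown, so the precision of members below 1 FPKM cannot be given from counts.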
